A study of Homo sapiens with 9 samples.

Results

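Small nucleolar RNA (snoRNA) host genes are genes whose introns hold snoRNAs, and the 10 described here are the non-coding hosts ZFAS1, GAS5, SNHG1, SNHG5, SNHG6, SNHG7, SNHG8, SNHG12, SNHG15 and SNHG16. They were chosen by name as non-coding hosts and selected on measured values as well, since the significance scores (−10 times log10 of the peak caller's p-value) of the ZFAS1 and SNHG5 peaks were among the highest of the lists. RNA polymerase II (RNAPII) peaks counted for a host when they overlapped its GENCODE span on the GRCh37 build (hg19), widened by 2 kb on either side. In this way 80 of the 142069 peaks in 5 lists fell on the 10 hosts, out of 38878 long non-coding RNA (lncRNA) and protein-coding genes examined in the same manner.

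The study mapped RNAPII on chromatin by immunoprecipitation followed by sequencing (ChIP-seq) in HEK293 cells, a line of human embryonic kidney origin, and asked how the loss or excess of RECQL5, a helicase found in complex with the polymerase, alters where RNAPII lies. In the hairpin arm the cells were infected with lentivirus carrying a control short hairpin RNA (control shRNA) or either of 2 hairpins against RECQL5, named shRNA5 and shRNA7. In the doxycycline arm HEK293T-rex cells carried a transfected plasmid with full-length RECQL5 under a doxycycline-responsive promoter, and were grown with 0.0 ng/ml or 1.0 ng/ml of the drug. Libraries made with non-specific IgG served as the background of the peak calls, 1 for each hairpin and 1 from untreated cells, taken here as that of the doxycycline arm. The labels give HEK293 as the line of all 9 libraries, and the protocol gives HEK293T-rex for the plasmid, so the arms differ in cells and plasmid and were not compared with each other.

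Each group was 1 library. There was no replicate, no test between conditions was possible, and each difference below is between single libraries. Intervals are 95% intervals of counting error alone. Tags are sequenced reads counted inside a peak, without normalisation, so that their number follows the depth of a library and the length of its peaks.

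Most snoRNAs in human cells are not transcribed from promoters of their own. They are cut from introns of a host transcript made by RNAPII, bound by proteins of the box C/D class, which guide 2′-O-methylation, or of the box H/ACA class, which guide pseudouridylation, and they modify ribosomal RNA in the nucleolus. The spliced RNA of a non-coding host codes for no protein and is often short-lived, and many hosts, like the genes for ribosomal proteins, begin with a run of C and T (a 5′ terminal oligopyrimidine tract, 5′TOP), a feature of genes whose output follows growth.

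RefSeq positions were used to assign snoRNAs to the span of a gene, on either strand, and not to place peaks. By them GAS5 holds 11 snoRNA genes, of which 10 are box C/D. SNHG1 holds 9, of which 8 carry box C/D names (SNORD22 and SNORD25 to SNORD31). SNHG12 holds 4, with SNORD99 as its box C/D member and SNORA61, SNORA44 and SNORA16A of the H/ACA class. ZFAS1 holds the 3 snoRNAs SNORD12, SNORD12B and SNORD12C, and SNHG16 holds SNORD1A, SNORD1B and SNORD1C. SNHG5 holds SNORD50A and SNORD50B, and SNHG7 holds SNORA17A and SNORA17B. The remaining hosts hold 1 each: SNORD87 in SNHG6, SNORA24 in SNHG8 and SNORA9 in SNHG15.

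The start sites are shown first, because the summits of the RNAPII peaks fell on them. Each window runs 5′ to 3′ on the transcribed strand of GRCh37, from 60 bases before the most frequently annotated transcript start to 40 bases from it. Position 1 is the first transcribed base and the base before it is position -1. Capitals mark the longest run of C and T between 10 bases before and 20 bases after the start, and the letters TATAA where they lie wholly between 45 and 15 bases before it. ZFAS1 and SNHG5 are shown as the hosts with the top scores, SNHG7, SNHG8 and SNHG12 because they hold both features, and SNHG15 because it holds neither. The windows are chr20:47895119-47895218 (plus strand) for ZFAS1, chr6:86388427-86388526 (minus) for SNHG5, chr9:139622597-139622696 (minus) for SNHG7, chr4:119199853-119199952 (plus) for SNHG8, chr1:28908346-28908445 (minus) for SNHG12 and chr7:45026228-45026327 (minus) for SNHG15.
ZFAS1: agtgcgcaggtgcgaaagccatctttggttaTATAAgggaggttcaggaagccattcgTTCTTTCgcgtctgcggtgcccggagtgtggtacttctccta
SNHG5: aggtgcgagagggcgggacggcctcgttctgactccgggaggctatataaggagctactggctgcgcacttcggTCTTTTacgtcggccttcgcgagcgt
SNHG7: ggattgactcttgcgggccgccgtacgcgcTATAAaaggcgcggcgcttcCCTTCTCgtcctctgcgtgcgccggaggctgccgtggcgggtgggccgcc
SNHG8: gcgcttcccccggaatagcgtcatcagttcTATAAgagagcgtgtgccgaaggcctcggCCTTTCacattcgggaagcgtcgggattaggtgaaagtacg
SNHG12: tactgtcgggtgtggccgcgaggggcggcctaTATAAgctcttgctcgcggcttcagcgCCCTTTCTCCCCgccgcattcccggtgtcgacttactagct
SNHG15: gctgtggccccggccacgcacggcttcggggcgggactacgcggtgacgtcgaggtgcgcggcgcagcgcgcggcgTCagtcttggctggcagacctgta

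A run of at least 6 C or T near the start was present in 9 of the 10 hosts, against 29.9% of the 38841 gene starts with a full window and 79.1% of 86 ribosomal protein genes. SNHG15 was the exception, with a longest run of 2 bases, and the median over the hosts was 7 bases against 4 over all starts. The first transcribed base was C in 7 hosts, in 15.8% of all starts and in 69.8% of ribosomal protein genes. TATAA on the transcribed strand stood before the start of 4 hosts, at position -29 in ZFAS1, -30 in SNHG7 and SNHG8, and -28 in SNHG12. It stood there in 4.26% of all starts and 11.6% of ribosomal protein genes. With both strands counted it was found in 5 hosts and in 5.34% of all starts. The run and TATAA occurred together in 4 hosts and in 1.48% of starts. SNHG5 held TATAA outside the window searched, at position -15, and its C and T run lay at positions 15 to 20 rather than at the annotated start. The counted run also lay off the first transcribed base in SNHG7 (positions -10 to -4), SNHG1 (5 to 11) and SNHG16 (2 to 9). Only the longest run was counted, and SNHG7 also held a shorter run of 6, tcctct, that covers its first transcribed base. TATAA was picked after the sequences had been seen, so its share is a description, and a match of letters is not by itself a binding site.

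The lists differed in size, which bears on every value below. Peaks numbered 5287 (842310 tags) under the control hairpin, 23698 (3778665 tags) under shRNA5 and 32124 (6698771 tags) under shRNA7. They numbered 47060 (1449163 tags) at 0.0 ng/ml and 33900 (1539844 tags) at 1.0 ng/ml of doxycycline. Of the 6 genes taken as active in HEK293 cells, 3 to 5 had a peak in each list (NEFM had none in any), and none of 6 genes of other tissues, such as ALB and HBB, had one. RECQL5 itself had no peak in the control shRNA or shRNA5 lists, 748 tags upon shRNA7, and 1171 and 1623 tags without and with doxycycline. A hairpin acts on RNA and the plasmid holds the same coding sequence, so these tags do not measure RECQL5 protein.

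RNAPII was found on nearly every host in every list. In the control shRNA list 9 of 10 hosts had a peak, where 16.4% of all genes did, and SNHG6 had none. All 10 had a peak upon shRNA5 (39.6% of all genes), shRNA7 (46.5%), without doxycycline (48.3%) and with it (39.8%). Presence and strength of peaks entered the choice of the hosts, and nothing is read from these shares. The hosts together held 0.625% of all tags in control peaks (interval 0.608 to 0.642), 0.274% upon shRNA5 (0.269 to 0.280) and 0.213% upon shRNA7 (0.209 to 0.216). They held 0.407% without doxycycline (0.396 to 0.417) and 0.446% with it (0.436 to 0.457).

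A start peak is one that touches the stretch from 500 bp before to 500 bp after the annotated start. Where several did, the one with most tags was taken. By fold enrichment, the height of a peak over its IgG background as the authors' caller gave it, the start peaks had a median percentile within their own list of 98.92, 99.17 and 99.25 in the control, shRNA5 and shRNA7 lists. It was 99.65 without doxycycline and 99.73 with it. In the same order of lists it was 96.37, 99.02, 99.01, 99.53 and 99.36 for ribosomal protein genes. All protein-coding genes with a start peak had medians of 67.51, 80.31, 81.82, 88.25 and 85.51. Peak strength entered the choice of hosts, so these percentiles are a description. The summit lay on the first 100 bp of the transcript for 9 of 9 hosts in the control list, 9 of 10 upon shRNA5, 8 of 9 upon shRNA7, 10 of 10 without doxycycline and 9 of 10 with it. Over all protein-coding genes with a start peak that share was 28.8%, 22.1%, 25.9%, 34.6% and 32.2% in the same order. It was 76.6%, 63.8%, 66.7%, 84.0% and 82.5% for ribosomal protein genes, and 14.2%, 12.3%, 11.5%, 16.2% and 16.0% for all lncRNA genes. The median distance from start to summit over the hosts was between 38.5 and 58.0 bp in the 5 lists. All summits of start peaks lay in an annotated exon of the host in the 3 hairpin lists, and 9 of 10 in each doxycycline-arm list, where that of GAS5 lay in an intron.

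**Figure D1:**
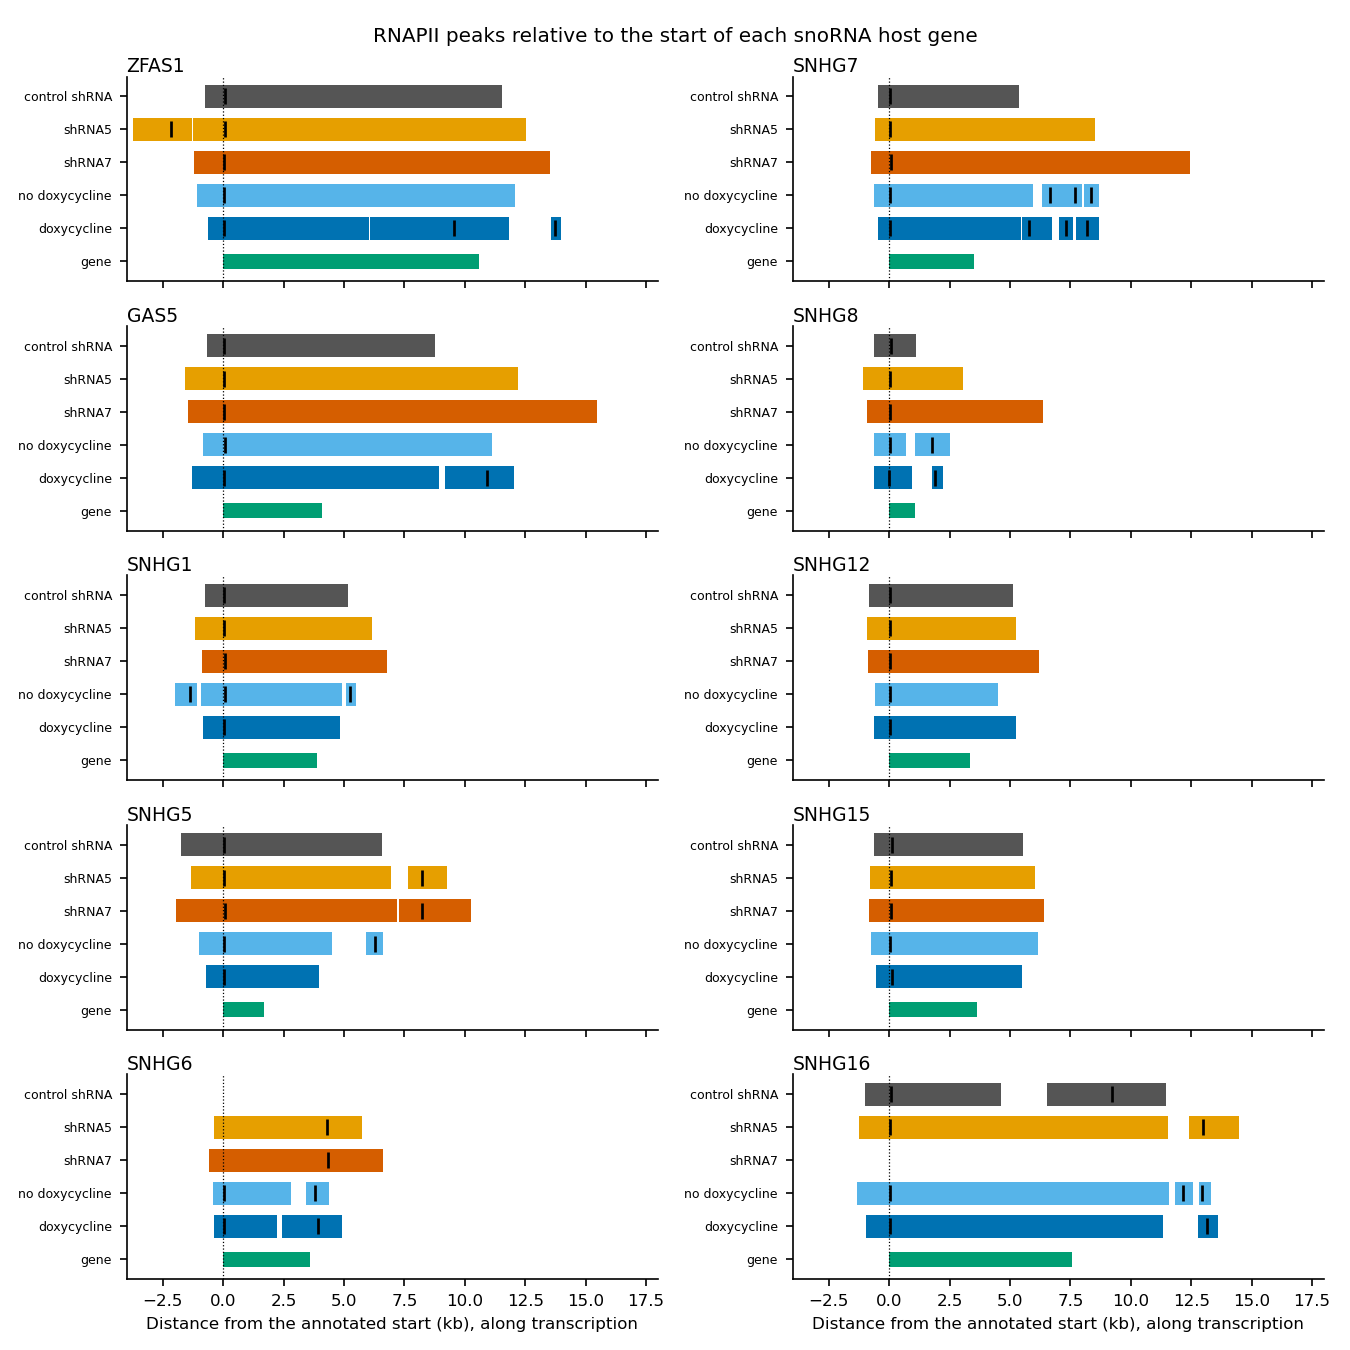
RNAPII peaks over each snoRNA host gene, drawn as bars for the 5 lists against the distance from the annotated start in kb along the direction of transcription; black ticks are summits and the green bar runs from the most frequent annotated start to the most frequent annotated end. Summits sit beside the start in nearly every panel, most peaks run past the green bar, and the panels for SNHG6 (control shRNA) and SNHG16 (shRNA7) have an empty lane. Peaks farther off, all over the long span of SNHG16, lie outside the axis.

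The start peaks of the hosts were long. They reached past the most frequent annotated end of the gene in 8 of 9 hosts in the control list, 10 of 10 upon shRNA5, 9 of 9 upon shRNA7, 8 of 10 without doxycycline and 7 of 10 with it. The same held for 6.91%, 6.27%, 10.6%, 2.56% and 2.80% of protein-coding genes, which are longer, with a median of 23.0 to 28.7 kb from start to end. All lncRNA genes with a start peak were as short as the hosts, with a median of 3.06 to 4.27 kb against 3.61 to 3.65 kb, and there the share was 26.5%, 27.3%, 34.3%, 10.9% and 11.6%. Ribosomal protein genes, with a median of 4.17 to 4.24 kb, gave 51.9%, 83.8%, 90.1%, 69.1% and 66.2%. The most frequent end can lie inside the whole annotated span. A peak past it can therefore still lie within the gene, as the control peaks of ZFAS1 and SNHG7 did. Since peak strength entered the choice of hosts, and strong peaks tend to be long, these shares are a description.

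**Figure D2:**
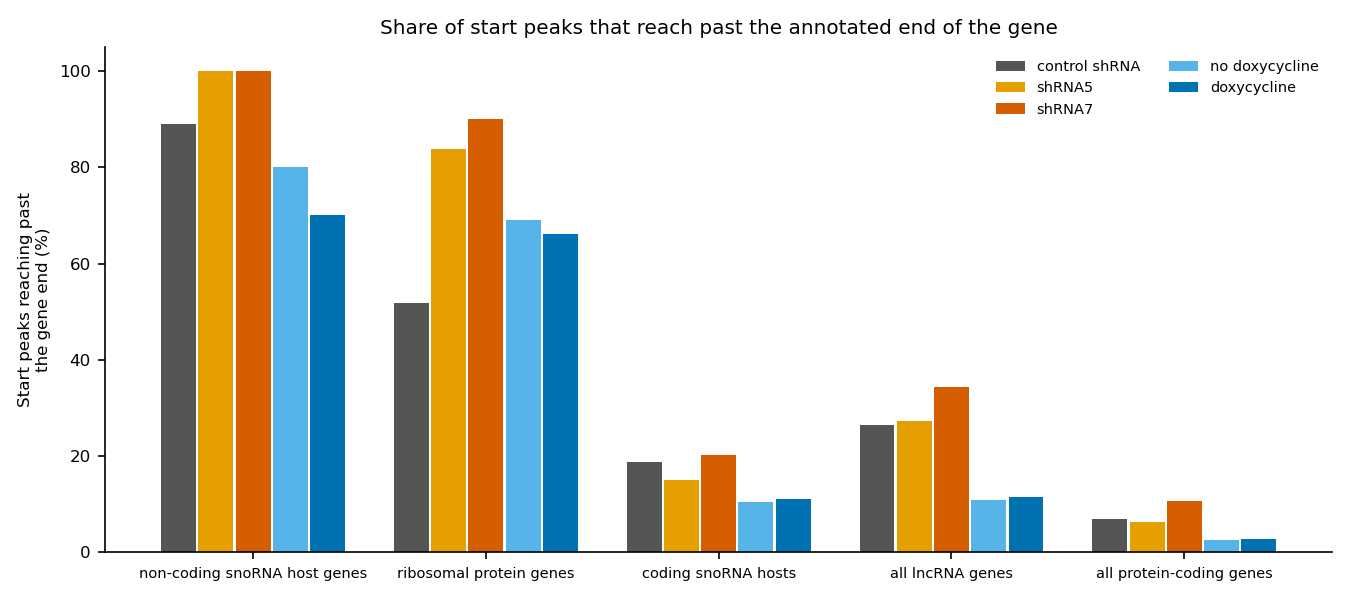
Bars give the percent of start peaks that reach past the most frequent annotated end of the gene, for 5 gene groups and the 5 lists. Host genes lie between 70.0% and 100%, ribosomal protein genes between 51.9% and 90.1%, and all protein-coding genes at or below 10.6%.

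ZFAS1 starts 216 bp from ZNFX1, which is transcribed the other way, and its most frequent start and end lie 10.6 kb apart (chr20:47894715-47916137, plus strand, for the whole annotated span). Its peaks held 916 tags under the control hairpin, 1480 under shRNA5 and 2124 under shRNA7, and 883 and 1029 tags without and with doxycycline. The lowest and highest of the hairpin arm were the control and shRNA7, and the doxycycline pair lay close together. Upon shRNA7 the ZFAS1 start peak had the highest significance score of the whole list, 3218.91, where the median of the list was 126. That score is near its ceiling, since 209 peaks of the list stood at 3100 or more, it was a value the host was chosen on, and by fold enrichment the peak ranked 28. In the control list its score was 442.04 and upon shRNA5 1456.13. With doxycycline the continuous 13.2 kb peak of 883 tags was called as a start peak of 6.67 kb with 658 tags, a second peak of 358 tags 9560 bp downstream and another of 13 tags. Start-peak tags were therefore 0.745-fold (0.674 to 0.824), while tags over the whole gene were 1.17-fold (1.07 to 1.27). ChIP tags carry no strand, so RNAPII on ZNFX1 and on ZFAS1 within the peak cannot be told apart.

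GAS5, known as growth arrest-specific transcript 5 (chr1:173827697-173838020, minus strand), begins 93 bp from the start of ZBTB37, and its most frequent annotated end lies 4.09 kb downstream. It had 878 tags in the control list, 1582 and 2692 with shRNA5 and shRNA7, and 956 and 1175 in the doxycycline arm. The shRNA7 value was the highest of any host in any list. Its start peak ran 8.78 kb downstream in the control, and 12.2 and 15.5 kb with shRNA5 and shRNA7. The summit stayed 25 or 26 bp from the start in the 3 hairpin lists, and lay at 67 and 38 bp without and with doxycycline.

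SNHG1 (chr11:62619450-62623425, minus strand), the host of SNORD22, faces the start of SLC3A2, 119 bp away, and spans 3.90 kb. Its tags were 508 under the control hairpin, 1047 under shRNA5 and 1387 under shRNA7, and 539 and 668 without and with doxycycline. Both hairpin values were above the control by 2.06-fold (1.85 to 2.29) and 2.73-fold (2.47 to 3.02). Its fold enrichment, 86.78 in the control, ranked 8 in that list and 6 upon shRNA5, where it was 88.42.

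SNHG5 (annotated span chr6:86360209-86388650, minus strand) is short, 1.67 kb from its most frequent start to end, yet its start peak reached 6.59 kb downstream in the control list and 3.97 to 7.20 kb in the others. Tags were 721 in the control, 1247 upon shRNA5 and 1823 upon shRNA7, and 459 and 473 in the doxycycline arm. The doxycycline values differed by less than counting error (1.03-fold, 0.906 to 1.17). With doxycycline its start peak had the highest score of the list, 3233.06, again a value it was chosen on and near a ceiling, with 156 peaks at 3100 or more. Its fold enrichment of 104.29 ranked 33. The start peak was of almost the same length in the control and shRNA5 lists, 8.32 and 8.26 kb, and held 86.6 and 142 tags per kb, so the lists differed in density and hardly in length. The peak touched ENSG00000271793, a protein-coding gene model on the same strand, in every list.

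SNHG7 (chr9:139615818-139622636, minus strand) is a host of H/ACA snoRNAs alone. Its start peak reached 1.86 kb past the most frequent annotated end in the control list and 8.94 kb past it upon shRNA7. In the control list the peak stopped at 139617246, still within the whole annotated span. Tags were 391 in the control, 834 with shRNA5 and 1755 with shRNA7, and 668 and 644 at the lower and higher dose of doxycycline. Its start peak was 5.86 kb long in the control list and 9.12 and 13.2 kb long upon shRNA5 and shRNA7. It touched DIPK1B, a gene on the other strand, in every list, and a transcript start of DIPK1B upon both hairpins alone. Without doxycycline its fold enrichment of 282.71 ranked 6 among the 47060 peaks, and with it 130.41 ranked 8 among 33900. It was the one host with fewer tags with doxycycline than without, by less than counting error (0.964-fold, 0.865 to 1.07).

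SNHG8 (chr4:119199858-119206471, plus strand) carried the fewest tags of the hosts that had a peak in the control list, 95, beside 286 and 632 with shRNA5 and shRNA7. In the doxycycline arm it had 127 and 146. Its folds upon the hairpins, taken over the whole gene, were the largest of all hosts with a control peak, 3.01 (2.39 to 3.80) and 6.65 (5.36 to 8.25). The start peak was 1.75 kb long in the control list and 4.13 and 7.28 kb long upon the hairpins, where it touched PRSS12 on the other strand. Its density was 54.4, 69.3 and 86.9 tags per kb in the same order, so length differed more than density.

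SNHG12 (chr1:28905050-28909644, minus strand) has a start peak that touched TRNAU1AP, on the other strand, in all 5 lists. It had 440, 760 and 1357 tags in the hairpin arm and 567 and 751 in the doxycycline arm. Its start peak held 193 tags per kb upon shRNA7 (183 to 203), the highest density of any host and list. The control value was 73.6 (66.9 to 80.8) over a stretch nearly as long, 5.98 kb against 7.04 kb. With doxycycline its tags were 1.32-fold (1.19 to 1.48).

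SNHG15 (chr7:45022618-45026560, minus strand) is the host whose start peak touched no protein-coding gene in any list, and so the one whose tags are not shared with a coding neighbour. It had 500 tags in the control list, 807 and 1022 with shRNA5 and shRNA7, and 491 without and 599 with doxycycline. The hairpin folds, 1.61 (1.44 to 1.80) and 2.04 (1.84 to 2.27), were the smallest over whole genes among hosts with a start peak in both lists, although that of ZFAS1 upon shRNA5 (1.62) was within its interval. Its peak ran 5.48 to 6.39 kb downstream of the start, past an end at 3.65 kb.

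SNHG16 was the host without a start peak upon shRNA7. ENSG00000267546, a gene model on the other strand, has a start 83 bp from that of SNHG16. GENCODE gives SNHG16 a span of 113 kb (chr17:74553809-74667067, plus strand), which takes in ST6GALNAC2 and other genes, whereas its most frequent start and end are 7.57 kb apart. Over the whole span it had 815 tags in the control list, 1918 with shRNA5 and 859 with shRNA7, and 1044 and 1146 in the doxycycline arm. The control list held a start peak of 376 tags and a separate peak of 439 tags with its summit 9233 bp downstream, and upon shRNA5 a single peak of 1613 tags covered both. Upon shRNA7 no peak touched the SNHG16 start. The nearest shRNA7 peak ended 5.31 kb away, and the 859 tags came from 1 peak at the far end of the span, with its summit 114295 bp from the start and outside the gene. Only 181 bp of that peak lay in the annotated span, and 18.1% of its length in the widened one, so the shRNA7 value of SNHG16 and its fold of 1.05 rest mostly on tags beyond the gene. Control peaks as strong as that of SNHG16 or stronger (score of 310.29 or more) were 457 in number, and 46 of them (10.1%, 7.63 to 13.2) had no overlapping peak upon shRNA7, against 5 (1.09%, 0.468 to 2.54) upon shRNA5. Whether RNAPII or the peak call was missing there was not tested.

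SNHG6, host of SNORD87 on chromosome 8 (67832796 to 67838633, minus strand), had no peak in the control list and 400 and 613 tags upon shRNA5 and shRNA7. Since a list gives no value below its calling threshold, no fold was computed. The smallest peak of the control list held 35 tags. In both hairpin lists the peak covered the SNHG6 start, but its summit lay 4301 and 4342 bp downstream, near the end of MCMDC2, a gene on the other strand that the peak touched. In the doxycycline arm the summits were at 33 and 14 bp from the start, with 139 and 142 tags in the start peaks, and separate peaks of 20 and 98 tags lay 3795 and 3916 bp downstream. Tags over the gene were 159 and 240, or 1.51-fold (1.24 to 1.84), the largest fold of the doxycycline arm, whereas the start peaks were 1.02-fold (0.809 to 1.29).

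**Figure D3:**
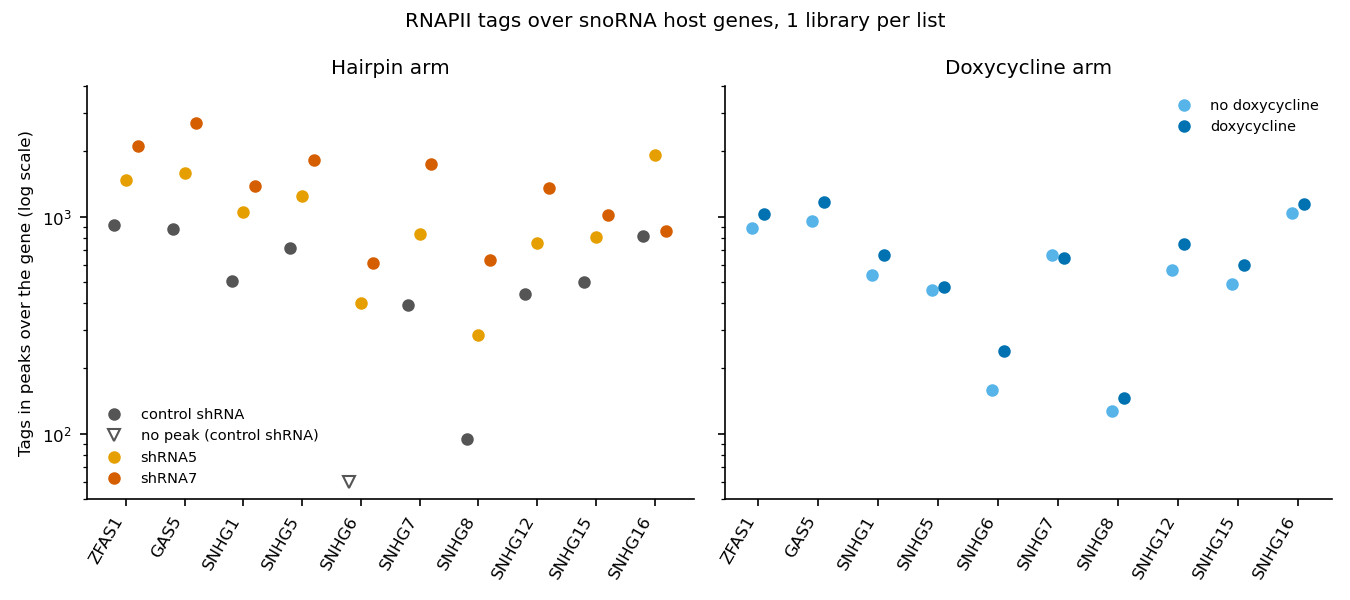
Tags in peaks over each snoRNA host gene on a log axis, 1 point for each library, in the hairpin arm (left) and the doxycycline arm (right). In 9 of 10 hosts shRNA7 is the highest of the hairpin arm, SNHG16 is highest upon shRNA5, and the open triangle marks SNHG6, which has no control peak.

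Tags per kb of start peak were used to order the hosts, since peaks differ in length. GAS5 was highest in the control list at 93.0 (86.9 to 99.3) and SNHG8 lowest at 54.4 (44.0 to 66.6), and none of the 8 pairs of neighbours in that order was separated by its counting intervals. Upon shRNA5 the order ran from SNHG1 at 143 (135 to 152) to SNHG6 at 65.2 (58.9 to 71.9), with 6 of 9 neighbouring pairs overlapping. Upon shRNA7 it ran from SNHG12 at 193 to SNHG6 at 85.1 (78.5 to 92.1), with 5 of 8 pairs overlapping. SNHG12 also came first without doxycycline at 112 (103 to 122) and with it at 128 (119 to 137), and SNHG6 last at 43.0 (36.1 to 50.7) and 54.0 (45.5 to 63.7). There 7 of 9 and 8 of 9 pairs of neighbours overlapped.

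Upon either hairpin against RECQL5 the hosts had more tags than in the control list, with a median fold below that of all genes. Peak strength entered the choice of hosts, so the comparison with all genes is a description. All 9 hosts with a peak in both lists had more tags upon shRNA5, as did 98.7% of all such genes, and all 9 upon shRNA7 (99.1%). Upon shRNA7 these 9 include SNHG16, which had no peak at its start. Its fold of 1.05 (0.958 to 1.16) rests mostly on tags beyond the gene and is no clear gain. Tags were at least 2-fold higher upon shRNA5 in 4 of the 9 hosts with a peak in both lists, where 76.9% of all genes with a peak in both were, and none was 2-fold lower (0.0631% of all genes). The 4 were SNHG1, SNHG7, SNHG8 and SNHG16. Upon shRNA7 8 of 9 passed the same limit, the exception being SNHG16, beside 95.4% of all genes, and none was 2-fold lower (0.343%). The median fold over the hosts was 1.80 upon shRNA5 against 3.01 over all genes, and 2.73 upon shRNA7 against 6.24. For all lncRNA genes the medians were 2.47 and 5.02, and for protein-coding genes that hold a snoRNA 2.93 and 4.94. Ribosomal protein genes, with the same median of 500 tags in their control start peaks as the hosts, had medians of 1.93 and 2.84, close to those of the hosts. Control start peaks of all protein-coding genes held a median of 91.0 tags. Whether the smaller folds of the hosts go with their larger control peaks was not tested. Relative to the median of all genes, the folds of the hosts were 0.536 to 1.000 upon shRNA5 and 0.169 to 1.07 upon shRNA7, with SNHG8 highest in both. The value of 0.169 is that of SNHG16. Counted relative to that median, no host was at least 2-fold higher upon shRNA5 (18.2% of all genes) and none lower (7.83%), and upon shRNA7 none was higher (19.9%) and 7 of 9 were lower (18.1%). The 7 include SNHG16. For hosts chosen partly on peak strength, these shares of all genes are no like background. Whole-gene folds also take in peaks far from the start, and protein-coding genes are longer than the hosts. With start peaks alone, the median tag fold upon shRNA5 was 1.80 over 9 hosts against 2.03 over 4185 genes. Upon shRNA7 it was 2.90 over 8 hosts against 3.49 over 3927 genes, so the gap was smaller on that measure.

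Summed over the 10 hosts, tags were 1.97-fold upon shRNA5 (1.90 to 2.03) and 2.71-fold upon shRNA7 (2.63 to 2.80). The control sum takes the absent SNHG6 peak as 0, and without SNHG6 the folds were 1.89 and 2.59. Leaving out SNHG16 gave 1.90 and 3.01, and counting start peaks alone gave 2.04 and 2.75. Divided by the median fold of all genes, the sums were 0.654 and 0.434, below 1. Library totals were not used, so these folds also carry any difference in depth and how much of the gene was called as a peak. The study's methods give similar read numbers for the samples compared.

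**Figure D4:**
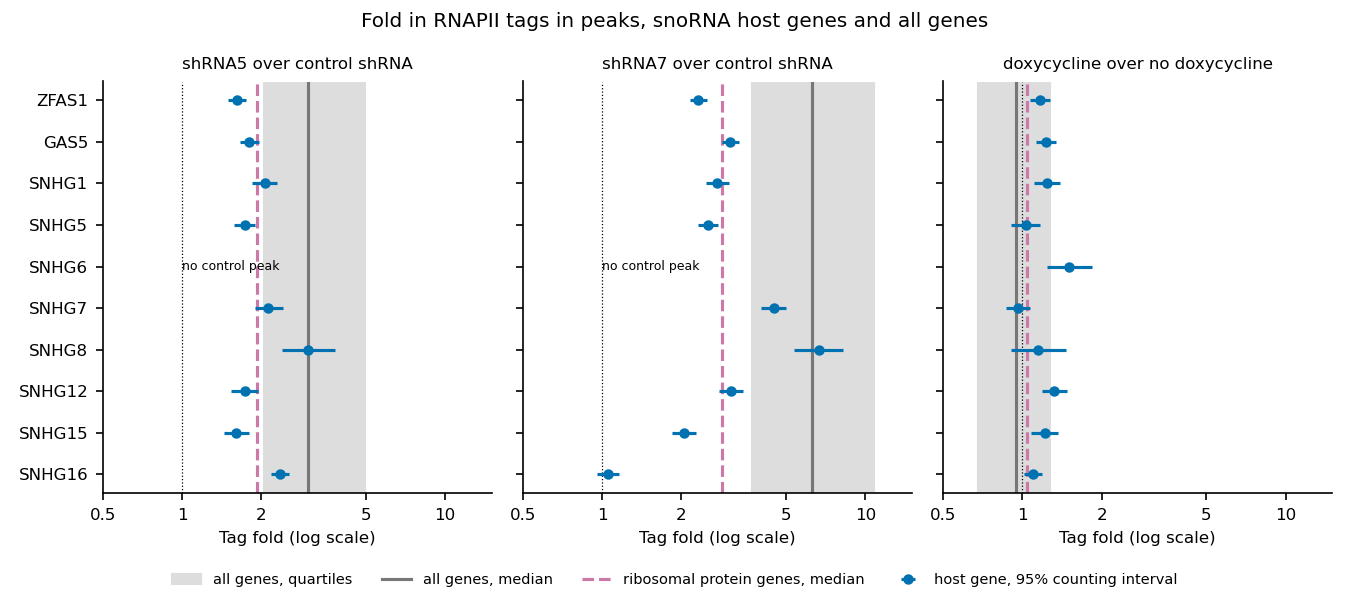
Fold in tags in peaks for each snoRNA host gene (points, with 95% counting intervals) in the 3 comparisons, on a log axis, beside the median and quartiles of all genes with a peak in both lists and the median of ribosomal protein genes. Most hosts lie below the quartile range of all genes upon shRNA7, where the median of all genes is 6.24, and in the doxycycline arm all lie between 0.964 and 1.51.

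More tags can come from a longer peak or from a denser one, and over the hosts the median fold in density was above that in length upon both hairpins. Over the 9 hosts with a start peak in both lists, peak length upon shRNA5 was 0.992- to 2.37-fold (median 1.23) and tags per kb 1.23- to 1.88-fold (median 1.46). All 9 were denser, as were 95.6% of all genes with a start peak in both lists, and 8 of 9 were longer (92.5%). Over 4185 genes the medians were 1.49 for length and 1.35 for density. Upon shRNA7 the 8 hosts were 1.10- to 4.17-fold longer (median 1.24) and 1.60- to 2.62-fold denser (median 1.96), where 3927 genes had medians of 2.24 and 1.58. All 8 were longer and denser, as were 97.9% and 98.8% of those genes. SNHG12 was the densest relative to control, 2.62-fold with a length of 1.18-fold, while SNHG8 was 4.17-fold longer and 1.60-fold denser.

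With doxycycline most hosts had slightly more tags than without it. No host passed 2-fold in either direction, where 6.16% of all genes with a peak in both lists were at least 2-fold higher and 11.6% at least 2-fold lower with doxycycline. Tags were higher in 9 of 10 hosts (44.5% of all genes), and the interval of the fold lay above 1 in 7 of 10 (20.9% of all genes), namely ZFAS1, GAS5, SNHG1, SNHG6, SNHG12, SNHG15 and SNHG16. Such counts depend on the number of tags, so these shares are no like background. Without doxycycline the median start peak held 536 tags over hosts and 43.0 over all protein-coding genes. Of the 7, the start peaks of ZFAS1 (0.745-fold) and SNHG6 (1.02-fold) showed no such gain. The median fold was 1.19 against 0.947 over all genes, 0.939 over lncRNA genes, 1.05 over coding snoRNA hosts and 1.04 over ribosomal protein genes. Summed over the hosts the fold was 1.17 (1.13 to 1.21), and 1.08 (1.04 to 1.12) with start peaks alone. Start peaks were shorter in 8 of 10 hosts and in 65.4% of 11257 genes (median 0.887-fold, 0.897 over all genes). They were denser in 9 hosts and in 70.0% of genes (median 1.25-fold, 1.13 over all genes). SNHG7 was at 1.00 after rounding, with 94.0 tags per kb with doxycycline and 93.5 without. ZFAS1 changed most, to 0.507-fold the length and 1.47-fold the density, through the split of its peak.

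**Figure D5:**
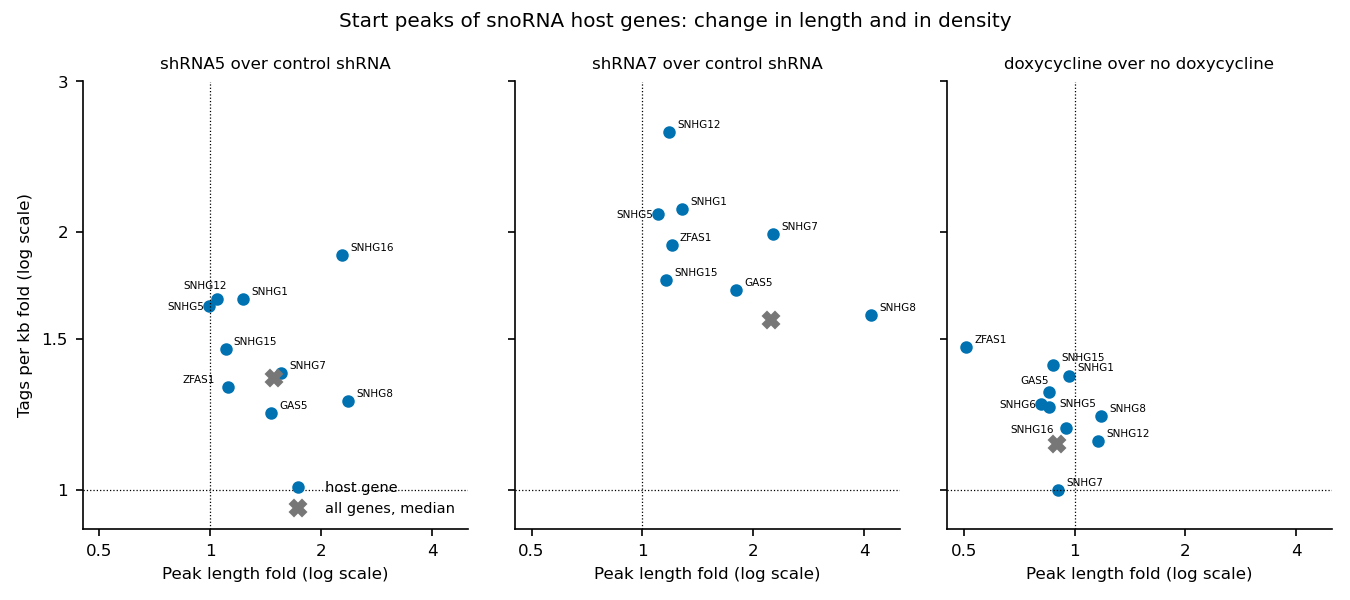
Each point is the start peak of a snoRNA host gene, placed by its fold in length (x, log axis) and its fold in tags per kb (y, log axis) in the 3 comparisons; the cross is the median of all genes with a start peak in both lists. Upon shRNA7 the 8 hosts sit above the cross, at 1.60 or more against 1.58. In the doxycycline arm 9 of 10 lie above 1 in density, with SNHG7 at 1.00 after rounding.

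Other genes of the snoRNA pathway were taken from fixed lists. Of 14 further non-coding hosts, 11 had a peak in the control list, 12 upon shRNA5 and 13 in each of the other 3 lists. Median folds over those present in both lists were 1.87 upon shRNA5, 4.52 upon shRNA7 and 0.877 with doxycycline, where 9 of 13 were lower. SNHG17 had 862 tags in the control list and no peak upon shRNA5 or shRNA7, and 860 and 1169 tags in the doxycycline arm. SNHG32 had 122 tags in the control list and 1604 and 4776 upon the hairpins, and SNHG3 had 711, 1253 and 3422.

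Proteins that coat box C/D snoRNAs are encoded by FBL (the methyltransferase fibrillarin), NOP56, NOP58 and SNU13, and 3 of the 4 genes had a control peak. NOP56, itself a host of snoRNAs, had 1033, 1997 and 2911 tags in the hairpin arm and 908 and 968 in the doxycycline arm. FBL had 419 and 1099 tags in the control and shRNA5 lists and no peak upon shRNA7. Of the box H/ACA genes, DKC1 (the pseudouridine synthase dyskerin), GAR1, NHP2 and NOP10, 3 of 4 had a control peak and all 4 had one in each other list. DKC1 had 64 tags in the control list and 656 and 1023 upon the hairpins. Among 11 assembly factors 6 had a control peak and 10 had one in each other list, and SHQ1 had none in any. Of these 19 genes, 4 of 4, 4 of 4 and 10 of 11 had a peak both without and with doxycycline. None of those was 2-fold higher or lower with doxycycline, where 6.16% and 11.6% of all such genes were.

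Of 5953 genes with a peak in all 5 lists, the profile of RPS24, a ribosomal protein of the small subunit, was nearest to that of the 10 hosts summed. The distance over the 5 lists was 0.0743 on the log2 scale after centring, and RPS24 had 645, 1316, 1808, 743 and 905 tags. RPS7 and the lncRNA gene ENSG00000287126, whose spans take in the same peaks, came next at 0.0778. These distances rest on 5 single libraries and carry their depth.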

How the data were processed

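Per the labels and the study's methods, the authors aligned reads with Bowtie (0.12.7) to hg19 and called peaks with MACS (1.4.2) for each RNAPII library against an IgG library. The submitters' processing notes also name CASAVA (1.8). The deposited lists give, for each peak, its length and summit, a count of tags that the authors did not normalise, a significance score (−10 times log10 of the p-value, reaching 3100 or slightly more at its ceiling), a fold enrichment that is the authors' ratio to local background, and an FDR in percent. The study's methods state that the samples compared had similar numbers of reads. Library totals were not used here, so the tags were not scaled to depth.

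GENCODE 44, lifted to GRCh37, gave spans, and the most frequent transcript start and end of each gene stood for its start and end; no peak ended past a GRCh37 chromosome. Overlap required 1 bp. Each column was read as the authors' value for its group. RefSeq snoRNA entries had no strand, so coding hosts are genes with a snoRNA inside their span on either strand (515 genes). Folds are ratios of tags with 95% Wilson intervals turned into odds, densities have exact Poisson intervals and shares Wilson intervals. The scripts (Python 3.11.15, pandas 2.3.3) were tested on simulated peaks. Hosts, gene lists and tests were chosen with earlier results of these data known. The genes named are the 10 hosts, at most 4 of each pathway list and the 3 nearest profiles. Alternatives were stricter peaks, lists cut to 5287 peaks, other spans, and tags shared out by overlap.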

Additional observations from a re-analysis of the deposited data

Results flagged for a closer look

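The start peak of SNHG16 held 1237 more tags upon shRNA5 than in the control list, and upon shRNA7 no peak was called there. The shRNA5 peak also covered the stretch of a separate control peak of 439 tags, so part of the difference reflects where the peaks were cut. Counting the absent call as 0 gives a difference of -376 tags from the control, which is no observed direction, since a missing call is not a zero. The difference between the hairpins was not tested.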

How the results depend on the processing

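The number of hosts with a peak and the summed folds were recomputed with stricter peaks and other spans, and, chosen after seeing the data, with start peaks only, without SNHG16, without SNHG6 and relative to the median gene; counts of hosts past 2-fold were recomputed with another limit and relative to the median gene. The other values had no alternative. The number of hosts with a peak was 9 or 10 in all 40 recomputed values. The summed tag fold upon shRNA5 was 1.90 with a fold enrichment of at least 10, 1.90 with lists cut to equal length, 2.04 with start peaks only, 1.90 without SNHG16 and 1.89 without SNHG6. Upon shRNA7 it was 2.52 with lists cut to equal length, 2.28 with tags shared out by overlap, 3.01 without SNHG16 and 2.59 without SNHG6, and in the doxycycline arm it was 1.08 with start peaks only. With a limit of 1.5-fold, 9 of 9 hosts were higher upon shRNA5 (92.4% of all genes) and 1 of 10 with doxycycline (15.1%). After division by the median fold of all genes no host was 2-fold higher upon either hairpin (0 and 0, against 18.2% and 19.9% of all genes), and 7 of 9 were 2-fold lower upon shRNA7 (18.1%). SNHG16, with no start peak in that list, is among the 7. Since peak strength entered the choice of hosts, the shares of all genes are no like background. The sums divided by the same median were 0.654 upon shRNA5 and 0.434 upon shRNA7, a reversed direction, and 1.23 with doxycycline. That median was taken over whole gene spans, not over start peaks. No other setting turned the direction of a sum.

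No paired analysis was possible because the groups share no replicate beyond their single library and no test was run. Leaving out a replicate was not run, as it empties a group. Intervals cover counting error only; the spread between cultures is unknown. Peaks of a list are cut off below its calling threshold, and missing peaks are not zeros.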
